A study of Mus musculus with 15 samples.

Results

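Peg10 and 9 other imprinted genes were followed on 15 arrays of mouse LSK cells, the lineage-negative Sca-1 and Kit positive fraction that holds hematopoietic stem and progenitor cells. The listed genes were Peg10, Sgce, Peg3, Dlk1, H19, Igf2, Igf2r, Cdkn1c, Grb10 and Ndn. A gene was measured where a probe set carried its symbol alone, and the brightest such probe set was read. The genes were chosen by symbol, and selected on measured values in so far as the Peg10 signal with EV against without EV was known when they were listed. By that rule 9 of the 10 listed genes were measured, among 22180 genes in all. Each of the 9 had a single probe set of this kind, so brightness decided no choice. H19 shares its probe set with a microRNA gene and was not analysed here. All 9 passed a limit set at the dimmest 40% of genes, a mean log2 signal of 4.42, with Peg3 just above it at 4.43.

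The 3 groups held 5 biological replicates each, 1 array per sample. In the first, LSK cells were taken directly after sorting (non-cultured). In the second, they spent 18 h in MyeloCult M5300 medium without extracellular vesicles (EV), and in the third 18 h in the same medium plus EV that stromal cells of the AFT line had shed. All groups thus share the sort, and both cultured groups share the medium and the time. No genotype, strain or age of the mice is given in the sources used here, and neither is the dose of EV.

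In imprinted genes the copy inherited from a given parent is silenced by marks set in the germ line, so that mainly a single parental allele is transcribed. Several of them control fetal growth, and in blood stem cells members such as Cdkn1c and the H19 and Igf2 pair are known for a part in quiescence. Peg10, Sgce, Peg3, Dlk1, Igf2 and Ndn are expressed mainly from the paternal copy, and H19, Igf2r, Cdkn1c and, in most tissues, Grb10 from the maternal copy. The arrays sum both alleles, so imprinting itself was not measured.

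Values are log2 signals, and a gene is said to have risen or fallen where limma's moderated test over all 22180 genes gave a Benjamini-Hochberg adjusted p under 0.05. Array medians lay between 4.62 and 4.74. The array with EV of replicate 1 stood apart, with a mean correlation to its group of 0.964 against 0.974 to 0.982 for the other 14. The mean over 8 LSK markers, Kit among them, lay between 7.74 and 8.06 on every array. Of these markers 3 rose and 1 fell in culture without EV, where 13.6% of all genes were called, and the rise of Kit (limma adjusted p = 0.0429) was lost on leaving out any of 10 of the 15 arrays. Flt3 alone of the 8 rose with EV against non-cultured cells, and none was called with EV against without EV. The mean over 7 genes of mature blood lineages lay between 3.93 and 4.27, and none of those 7 changed in any comparison. Ly6a, which encodes Sca-1, had no probe set of its own.

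Peg10 was far higher in cells cultured with EV. Peg10 encodes a gag- and pol-like protein that derives from a retrotransposon, is needed in placenta and can be released from cells in particles. The 5 arrays with EV read 8.67, 7.85, 8.34, 7.63 and 7.96 in the order of replicates 1 to 5. Without EV they read 6.06, 6.24, 6.57, 6.20 and 6.00, and in non-cultured cells 6.23, 5.93, 6.40, 6.05 and 5.98. Every array with EV lay above every other array, with the lowest at 7.63 and the highest of the other 10 at 6.57. Groups that do not overlap, in either direction, were found for 1.2% of all genes with EV against without EV. Against non-cultured cells the share was 11.2%. The separation is a description, since Peg10 was listed with its signal with EV known.

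Peg10 averaged 6.12 ± 0.20 in non-cultured cells, 6.21 ± 0.22 after culture without EV and 8.09 ± 0.41 with EV (SD, n = 5 each). With EV against without EV the difference was log2 1.88 (SE 0.17), or 3.67-fold, the rise of rank 13 among all genes. Peg10 leads this set of genes and was listed with that difference known, so it is given here as a description with no p. In this comparison 0.198% of all genes were called, 40 higher (0.18%) and 4 lower (0.018%), and nothing is read from the presence of Peg10 among the 40. Without the array of replicate 1 the difference was 1.73. In bulk RNA, more RNA per cell and more cells that hold it cannot be told apart.

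Culture alone left no detectable difference in Peg10. Without EV against non-cultured it was log2 0.09 (SE 0.17, limma adjusted p = 0.83), with a 95% interval of -0.27 to 0.46 and overlapping groups. With EV against non-cultured the difference was 1.97 (SE 0.17), a value that shares its arrays with the first comparison.

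**Figure D1:**
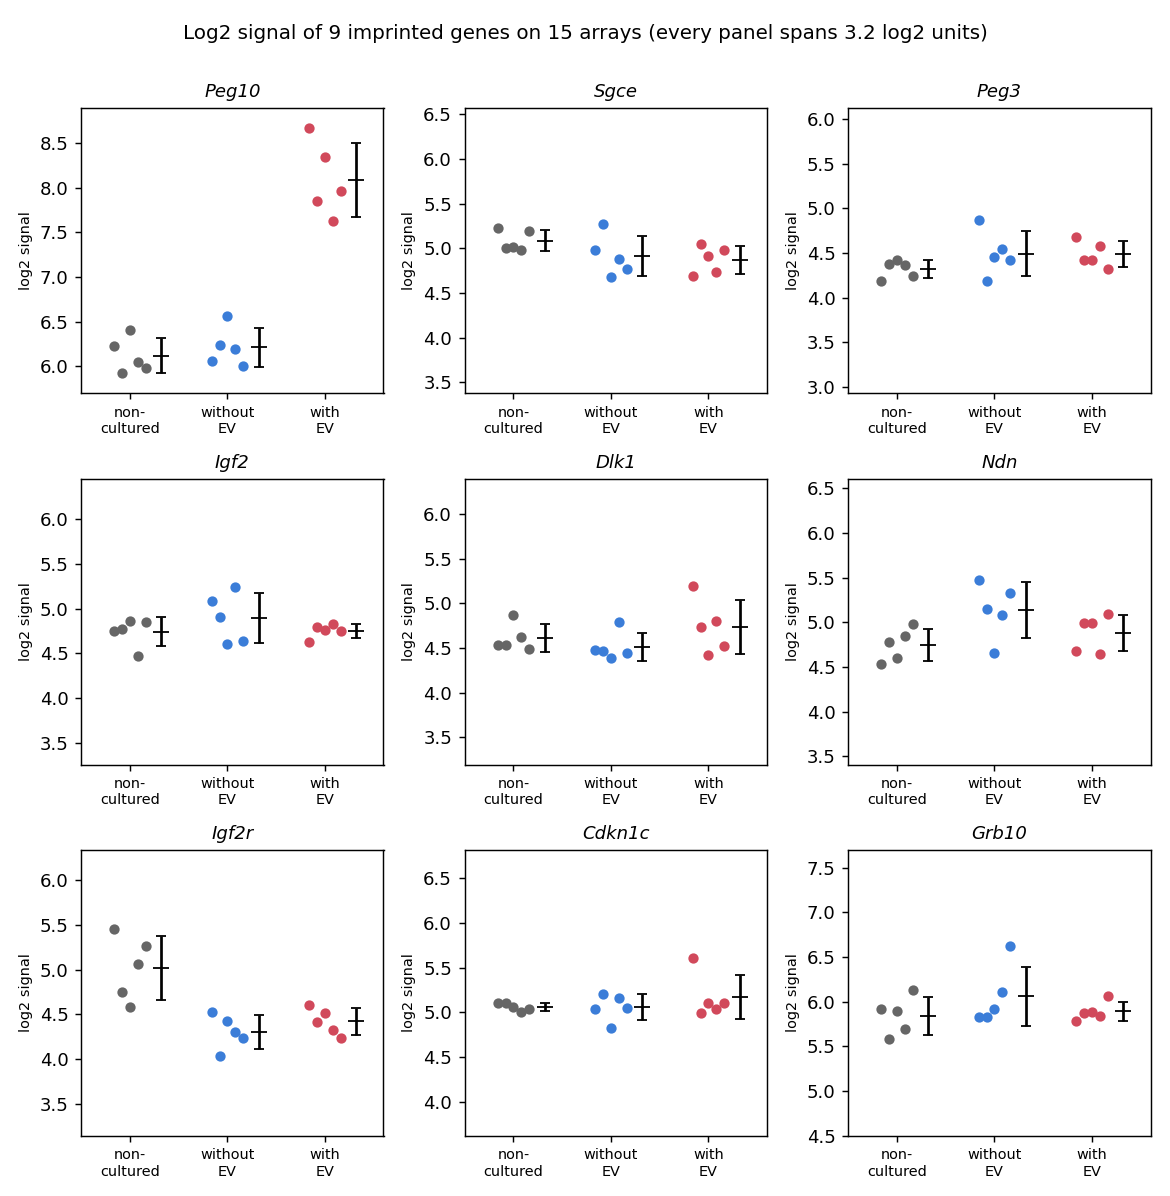
Log2 signal of the 9 measured imprinted genes (y axis, each panel spanning 3.2 log2 units) in non-cultured cells (grey), after culture without EV (blue) and with EV (red). Points are single arrays in the order of replicate number, and bars give the mean ± SD of 5 arrays. Peg10 is separate with EV, from 7.63 upwards, and Igf2r is lower in both cultured groups.

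Sgce, the neighbour of Peg10, did not share its pattern. Sgce encodes the membrane protein epsilon-sarcoglycan, and the genes lie head to head and share a start region. With EV its arrays read 4.69, 5.05, 4.91, 4.73 and 4.98, and without EV 4.98, 5.27, 4.68, 4.88 and 4.77. In non-cultured cells they read 5.23, 5.01, 5.01, 4.98 and 5.20. The groups with and without EV overlapped, and the difference was log2 -0.04 (SE 0.11, limma adjusted p = 0.961), with a 95% interval of -0.28 to 0.19. After culture without EV the difference from non-cultured cells was -0.17 (SE 0.11, adjusted p = 0.424).

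The distance between the neighbours therefore widened with EV. Peg10 minus Sgce on the same array averaged 1.03 ± 0.23 in non-cultured cells, 1.30 ± 0.36 after culture alone and 3.22 ± 0.49 with EV (SD, n = 5). The lowest value with EV, 2.80, exceeded the highest without EV, 1.89. This too is a description, since Peg10 sets it.

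None of the other 7 genes fixed around this pair was called with EV against without EV. Casd1, a sialic acid acetyltransferase gene next to Sgce, differed by log2 0.02 (SE 0.15), and Ppp1r9a, an actin-binding neighbour of Peg10, by -0.10 (SE 0.19). Pon3, a lactonase gene farther along, differed by -0.21 (SE 0.17). With EV against non-cultured cells 2 of the 7 rose and 1 fell, where 14.1% of all genes were called. Of the 2 that rose, Asb4 was dim, with a mean of 3.51 in non-cultured cells and 3.84 with EV. Its call was among those most often lost in alternative fits. In culture without EV 1 rose and 1 fell, where 13.6% of all genes were called. Pon3 rose 2.83-fold (log2 1.50, SE 0.17, limma adjusted p = 1.74e-05) and Ppp1r9a fell by 0.80 on the log2 scale (SE 0.19, adjusted p = 0.0104), while Casd1 differed by 0.07.

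**Figure D2:**
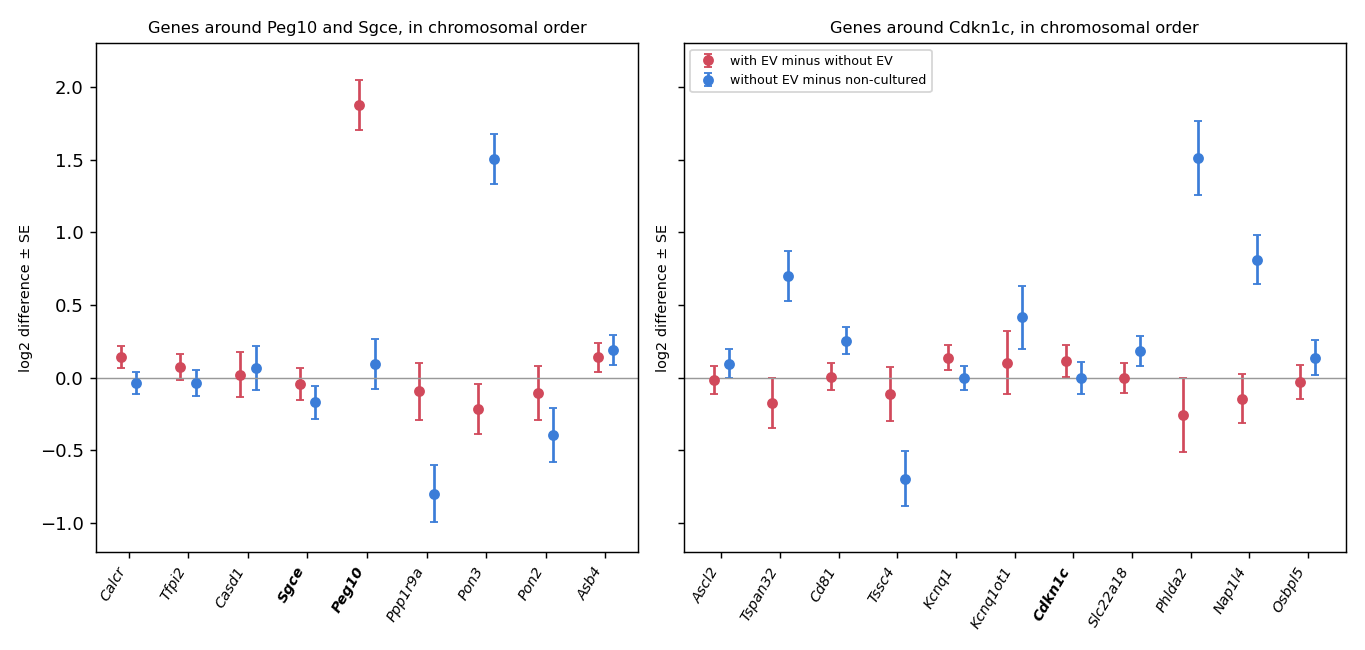
Log2 difference ± SE of genes around Peg10 and Sgce (left) and around Cdkn1c (right), in RefSeq order along the chromosome with spacing not to scale. Red points give with EV minus without EV and blue points without EV minus non-cultured. Peg10 at 1.88 is the sole red point far from 0, whereas Pon3 and Phlda2 have the highest blue points.

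**Figure D3:**
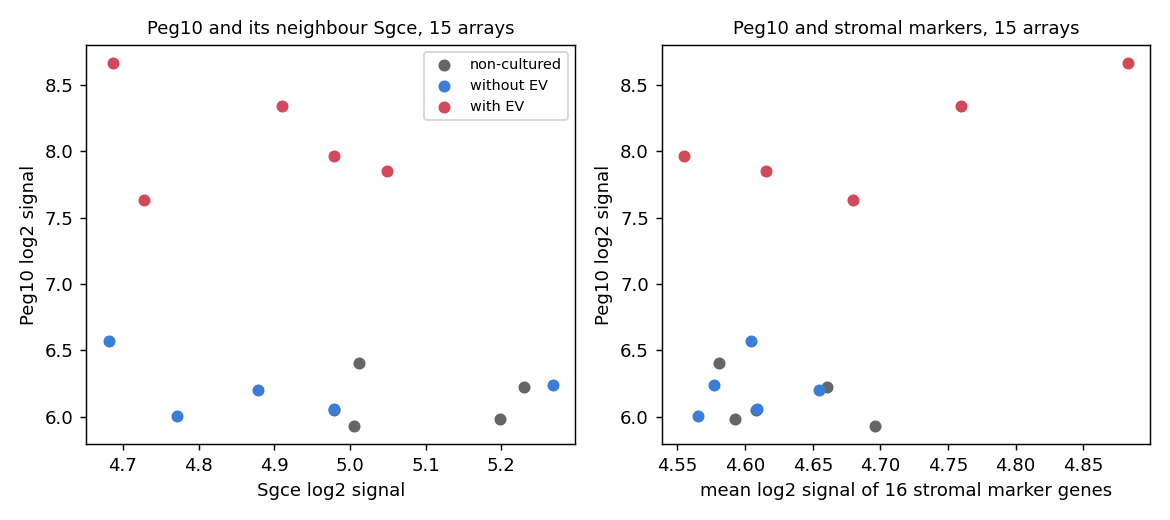
Log2 signal of Peg10 (y axis) against that of Sgce (left) and against the mean of 16 stromal marker genes (right) on the 15 arrays, coloured by group. The 5 arrays with EV sit above 7.6 on the y axis at Sgce values within the range of the other 10. Replicates 1 and 3 with EV have the highest stromal means, and replicate 1 also has the highest hepatoblast mean.

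Stromal transcripts were followed beside Peg10, since the EV came from stromal cells. Of 16 stromal marker genes none was called with EV against without EV, and 4 had an unadjusted p under 0.05. The chemokine gene Cxcl12 differed by log2 0.50 (SE 0.13, limma adjusted p = 0.33) and the matrix gene Sparc by 0.38 (SE 0.11, adjusted p = 0.464). With EV against non-cultured cells 3 of the 16 rose and 1 fell, where 14.1% of all genes were called. Those that rose were Cxcl12 (log2 0.48, limma adjusted p = 0.0233), Sparc (0.39, adjusted p = 0.0287) and the collagen gene Col1a2 (0.31, adjusted p = 0.0231). Each of these 3 calls was lost when certain single arrays were left out: Cxcl12 without non-cultured replicate 4, Sparc without non-cultured replicate 2, 3 or 4 or replicate 1 or 3 with EV, and Col1a2 without non-cultured replicate 2 or 3 or replicate 3 with EV. The surface antigen gene Thy1 fell by 0.76 (SE 0.17, adjusted p = 0.00567), and by 0.86 in culture without EV (adjusted p = 0.00227). The mean over the 16 genes per array ran from 4.55 to 4.88 with EV, from 4.57 to 4.65 without EV and from 4.58 to 4.70 in non-cultured cells. The highest means, 4.88 and 4.76, belonged to replicates 1 and 3 with EV, which also had the highest Peg10. The lowest of all, 4.55, was that of replicate 5 with EV, where Peg10 read 7.96. The part of stromal RNA in the Peg10 level was not tested. Of 10 hepatoblast markers none was called in any comparison, with means per array between 4.58 and 4.92. The 4.92 was again replicate 1 with EV, which also had the highest mature lineage mean, 4.27, and the highest array median, 4.74. On that array the stromal mean was thus high together with the means of other lists. Replicate 3 with EV differed from it, with a hepatoblast mean of 4.63, a mature lineage mean of 4.08 and an array median of 4.64. It had the highest Cxcl12 (5.57) and Sparc (4.96) of all arrays.

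The genes whose levels followed Peg10 most closely over the 15 arrays were Wasf3 (Pearson r = 0.97), Kif1c (0.97), Cgnl1 (0.96), Trak2 (0.95) and Kctd10 (0.94). All 5 were called higher with EV, so these correlations mostly restate the difference between groups. Over deviations from the group means the closest were Strc (r = 0.88), Aktip (0.87), a predicted gene, Dnaic2 (0.85) and Olfr1322 (0.84). None of these was called with EV. Replicate 1 with EV, the array that stood apart, was the highest of its group for Peg10 (8.67), Strc (4.34), Aktip (7.60), Dnaic2 (4.83) and Olfr1322 (4.08). The correlations over deviations were not repeated without that array. All these correlations are descriptions over 15 arrays that share their processing.

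Other genes that derive from retrotransposon gag or protease sequences were set beside Peg10. Of 16 measured members of that list none was called with EV against without EV, and the median difference was log2 0.00 against 0.01 for all genes. Asprv1, a skin protease gene, differed by 0.53 (SE 0.16, limma adjusted p = 0.469) and the neuronal gene Arc by 0.23 (SE 0.11, adjusted p = 0.715). Nynrin differed by -0.65 (SE 0.31, adjusted p = 0.728), with wide scatter. In culture without EV none of the 16 was called either. The sole call among the 16 with EV against non-cultured cells was Asprv1, which rose by 0.69 (SE 0.16, adjusted p = 0.00727).

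The 8 other measured imprinted genes showed no detectable difference with EV. Their differences from culture without EV ran from log2 -0.26 for Ndn to 0.22 for Dlk1, the groups overlapped for all 8, and the lowest limma adjusted p was 0.767. The 95% intervals reached -0.57 at the low end and 0.50 at the high end, so signal differences of more than about 1.48-fold lie outside all of them. Peg3 (mean 4.43), Igf2r (4.58) and Dlk1 (4.62) were among the dimmer ones, and dim genes cannot be told from background here. The bound thus holds for signal and not for RNA. A wider list took in neighbours in the imprinted domains and other genes listed as imprinted, whose imprinting in these cells was not tested. Among its 60 measured genes, which leave the 9 measured members out, none was called in this comparison and 1 had an unadjusted p under 0.05. That gene, Ampd3, an AMP deaminase gene, differed by -0.27 (SE 0.11, limma adjusted p = 0.664), with no overlap between groups. Non-overlap with EV was found for 1.2% of all genes.

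**Figure D4:**
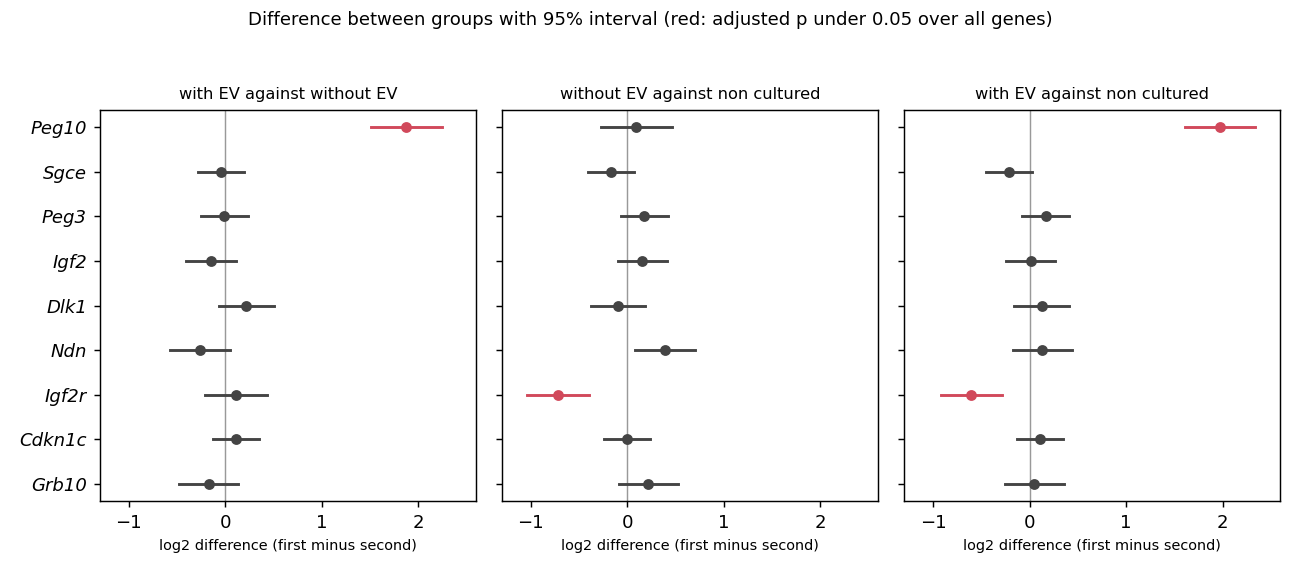
Log2 difference (x axis) with its 95% interval for the 9 measured imprinted genes in the 3 comparisons, first group minus second. Red marks an adjusted p under 0.05 over all 22180 genes. Peg10 stands out in the comparisons that involve EV, at 1.88 and 1.97, and Igf2r lies below 0 in those against non-cultured cells. For Peg10 the red marks are a description only, since it was listed with its difference with EV known.

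Dlk1 and Igf2 encode the secreted or membrane-bound ligands of the set. Dlk1, a Notch-like protein of fetal and stromal cells, read 5.20, 4.73, 4.43, 4.80 and 4.52 with EV. Without EV it read 4.48, 4.47, 4.39, 4.79 and 4.44, and in non-cultured cells 4.53, 4.53, 4.87, 4.63 and 4.49. The array of replicate 1 was the highest with EV, and the groups overlapped. The difference with EV was log2 0.22 (SE 0.13, limma adjusted p = 0.777), and 0.11 without that array.

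The Dlk1 domain gave no call in any comparison. Its maternally expressed noncoding RNAs Meg3 and Rian differed with EV by log2 0.09 (SE 0.10) and -0.01 (SE 0.12). Dio3, a thyroid hormone deiodinase gene at the far end of the domain, differed by 0.17 (SE 0.14).

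Igf2, the fetal insulin-like growth factor, varied most without EV, from 4.60 to 5.24 with a median of 4.90. With EV it ran from 4.63 to 4.83 with a median of 4.76, and in non-cultured cells from 4.46 to 4.86 with a median of 4.77. The 3 groups overlapped, with differences of log2 -0.14 (SE 0.12, limma adjusted p = 0.843) with EV and 0.16 (SE 0.12, adjusted p = 0.516) in culture without EV. Its neighbours Ins2 and Th were not called in any comparison.

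Igf2r fell in culture. Igf2r encodes the receptor that carries IGF2 to lysosomes for degradation and also sorts lysosomal enzymes. Non-cultured cells read 5.45, 4.75, 4.58, 5.07 and 5.27, and cells cultured without EV 4.53, 4.03, 4.43, 4.31 and 4.23. With EV they read 4.61, 4.42, 4.52, 4.32 and 4.24. Every array without EV lay below every non-cultured array, a separation that, in either direction, was found for 12% of all genes. With EV, replicate 1, at 4.61, just passed the lowest non-cultured array at 4.58.

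The group means of Igf2r were 5.02 ± 0.36 in non-cultured cells, 4.30 ± 0.19 without EV and 4.42 ± 0.15 with EV (SD, n = 5 each). The fall was 1.65-fold without EV (log2 -0.72, SE 0.15, limma adjusted p = 0.00365) and 1.52-fold with EV (log2 -0.60, SE 0.15, adjusted p = 0.0123). Those comparisons share the non-cultured arrays. The mean without EV lay below the limit for dim genes, 4.42, and the mean with EV was at it. The folds thus hold for signal and not for RNA. The cultured groups themselves differed by 0.12 (SE 0.15, adjusted p = 0.913), which is within their spread.

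Igf2r was the sole measured member called in culture without EV, 1 of 9 or 11.1%, where 13.6% of all genes were called, 6.75% higher and 6.88% lower. That share is near the background over all genes, dim ones included. With the dimmest 40% of genes left out, 3166 genes were called, against 3022 over all genes. The share among brighter genes, to which all measured members belong, is thus higher than 13.6%. With EV against non-cultured cells Igf2r and Peg10 were called, 2 of 9, where 14.1% of all genes were, 6.28% higher and 7.85% lower. Nothing is read from that count, since it includes Peg10 on the same arrays with EV on which Peg10 was listed.

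The measured neighbours of Igf2r showed no detectable fall in signal, but they were too dim to tell whether their RNA fell with it. Airn, the antisense noncoding RNA that silences the paternal Igf2r copy, differed by log2 -0.06 (SE 0.09, limma adjusted p = 0.757) in culture without EV. It overlaps Igf2r on the other strand, and whether the probes read strand is not given in the sources used here. Slc22a2 differed by -0.08 (SE 0.12) and Mas1 by -0.09 (SE 0.09). In non-cultured cells the mean log2 signal was 4.17 for Airn, 3.43 for Slc22a2 and 3.29 for Mas1, against 5.02 for Igf2r. All of these neighbours lay below the limit for dim genes given above. Dim genes cannot be told from background here, so a fall of their RNA could have been missed.

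The bases before the Igf2r start are shown because Igf2r is the member that changed in culture alone. They are the 250 bases upstream in RefSeq's GRCm38.p6 annotation, chr17:12769707-12769956, minus strand, written 5′ to 3′ with each CG in capitals.
Igf2r: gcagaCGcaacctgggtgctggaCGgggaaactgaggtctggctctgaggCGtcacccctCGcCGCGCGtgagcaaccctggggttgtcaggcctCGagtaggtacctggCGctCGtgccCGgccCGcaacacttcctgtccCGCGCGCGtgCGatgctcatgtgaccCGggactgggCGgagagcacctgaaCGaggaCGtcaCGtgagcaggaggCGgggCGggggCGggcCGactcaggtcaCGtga
This stretch holds 27 CG dinucleotides and is 69.2% G or C, against medians of 6 and 52.4% over 32851 promoter windows of the same length. A count of 27 or more was found in 8.56% of those windows. Grb10, which was not called in any comparison, had a window with 40. The E-box CACGTG, which reads the same on both strands and overlaps a CG in each copy, occurs 2 times, starting 48 and 7 bases before the start. At least 1 copy was found in 6.02% of all windows and at least 2 copies in 0.429%. A link of the CG content or the E-box with the fall of Igf2r was not tested. The table held 6 of the 10 listed genes, and the other 5 of these had no copy. Peg10, Sgce, H19 and Cdkn1c were not in the table.

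Cdkn1c and Grb10 act as brakes on growth, the former as a cyclin-dependent kinase inhibitor (p57) and the latter as an adaptor that dampens insulin and IGF receptor signals. Cdkn1c was nearly constant in non-cultured cells, from 5.01 to 5.11. Without EV it ran from 4.82 to 5.21, with a median of 5.05, and with EV it read 5.61, 4.99, 5.11, 5.04 and 5.11. Only replicate 1 with EV lay above the range of the other groups. The difference with EV was log2 0.11 (SE 0.11, limma adjusted p = 0.87) and 0.00 without that array, and culture without EV gave -0.01 (SE 0.11, adjusted p = 0.99).

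Genes beside Cdkn1c did change in culture. Phlda2, a maternally expressed gene that restrains placental growth, rose 2.86-fold without EV (log2 1.51, SE 0.25, limma adjusted p = 0.000646). Its groups did not overlap, which in this comparison held for 12% of all genes. The mean of Phlda2 in non-cultured cells, 3.38, lay below the limit for dim genes. Its fold thus holds for signal and not for RNA. Nap1l4, a nucleosome assembly gene, rose by log2 0.81 (SE 0.17, adjusted p = 0.00331) and the tetraspanin gene Tspan32 by 0.70 (SE 0.17, adjusted p = 0.0105). Tssc4 fell by 0.69 (SE 0.19, adjusted p = 0.02), a call lost without non-cultured replicate 1 or 4, or replicate 3 or 4 without EV. Kcnq1ot1, the noncoding RNA that silences this domain on the paternal copy, differed by 0.41 (SE 0.22, adjusted p = 0.269). Of 10 measured genes 3 rose and 1 fell in this comparison, where 13.6% of all genes were called, and none was called with EV against without EV.

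Grb10 ran from 5.58 to 6.13 in non-cultured cells (median 5.89), from 5.83 to 6.62 without EV (median 5.91) and from 5.78 to 6.06 with EV (median 5.87). The 3 groups overlapped. The differences were log2 0.22 (SE 0.14, limma adjusted p = 0.423) in culture without EV and -0.17 (SE 0.14, adjusted p = 0.845) with EV. Neither of the measured neighbours of Grb10 was called in any comparison.

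Ndn and Peg3 encode a MAGE family protein that restrains proliferation and a zinc finger factor. Ndn read 5.48, 5.15, 4.65, 5.09 and 5.32 without EV, against 4.54, 4.78, 4.60, 4.84 and 4.98 in non-cultured cells. With EV it read 4.68, 4.99, 4.99, 4.64 and 5.09. The array without EV of replicate 3 was low in its group, and the other 4 lay above all non-cultured arrays. Culture without EV gave a difference of log2 0.39 (SE 0.14), short of the threshold at a limma adjusted p of 0.0918, and without that array it was 0.51 (adjusted p = 0.0147). With EV against without EV it was -0.26 (SE 0.14, adjusted p = 0.767).

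In the domain of Ndn, Ube3a, the ubiquitin ligase gene of Angelman syndrome, rose in culture without EV (log2 0.43, SE 0.12, limma adjusted p = 0.0189), a call lost without non-cultured replicate 1 (adjusted p = 0.0559) or replicate 3 (adjusted p = 0.0504). Magel2, a MAGE relative of Ndn, differed by 0.09 (SE 0.08). Peg3 ran from 4.19 to 4.42 in non-cultured cells, from 4.19 to 4.87 without EV and from 4.32 to 4.69 with EV, with overlap throughout. Its differences were 0.18 (SE 0.11, adjusted p = 0.406) in culture without EV and -0.01 (SE 0.11, adjusted p = 0.996) with EV. Its neighbours Usp29 and Zim1 were not called in any comparison.

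The 9 genes did not vary together within groups. Over deviations from the group means on 15 arrays, the 36 pairwise correlations ran from -0.53 (Sgce and Peg3) to 0.62 (Dlk1 and Cdkn1c), with a median of 0.03. Without the array with EV of replicate 1 the last of these was 0.12. The correlation of Peg10 with Cdkn1c was 0.46, and -0.16 without that array.

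Over the wider list of 60 genes, 8 rose and 5 fell in culture without EV, 21.7% against 13.6% of all genes. The median difference was log2 0.03 against 0.01. These data do not show which of the 60, Rb1 among them, are imprinted in mouse LSK cells. The share is thus not read as one of imprinted genes. Outside the domains above, Rb1, the retinoblastoma gene, rose by log2 0.79 (SE 0.13, limma adjusted p = 0.00051). Gatm, an enzyme gene of creatine synthesis, fell 2.24-fold (log2 -1.17, SE 0.16, adjusted p = 0.000112), and the serotonin receptor gene Htr2a fell by 0.83 (SE 0.20, adjusted p = 0.00953). Zfp64 fell by 0.64 (SE 0.14, adjusted p = 0.00464). With EV against non-cultured cells the counts were also 8 and 5. There Nnat, a membrane proteolipid gene, rose by 0.76 (SE 0.17, adjusted p = 0.00723) on its brighter probe set, while its dimmer one differed by -0.40 (adjusted p = 0.815 in a fit over all probe sets).

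Other genes of the IGF system were followed beside Igf2, Igf2r and Grb10. Of 16 measured genes 1 rose and 2 fell in culture without EV, 18.8% against 13.6% of all genes, which is near the background. Igfbp4, which binds IGFs outside the cell, fell 3.26-fold (log2 -1.71, SE 0.16, limma adjusted p = 1.91e-06), and the adaptor gene Irs2 fell 2.14-fold (log2 -1.10, SE 0.15, adjusted p = 8.18e-05). Insr, the insulin receptor gene, rose 1.95-fold (log2 0.96, SE 0.11, adjusted p = 1.76e-05). The list's median difference was 0.05 against 0.01 over all genes.

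With EV against without EV none of the 16 was called. The adaptor gene Irs1 was higher in every array with EV than without on its brighter probe set (log2 0.87, SE 0.20, limma adjusted p = 0.186). Its dimmer probe set differed by 1.34 and passed in a fit over all probe sets (adjusted p = 0.0352), as did its mean over both probe sets (log2 1.11, adjusted p = 0.0191) and its brighter probe set without replicate 3 with EV (log2 0.61, adjusted p = 0.013). Against non-cultured cells the brighter one rose with EV (log2 0.91, SE 0.20, adjusted p = 0.00581).

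Uhrf1 and 3 other genes of a list that maintains imprints through cell division fell in culture. Of 8 measured genes 4 fell without EV and none rose, where 6.88% of all genes fell, and the list's median was log2 -0.45 against 0.01 for all genes. Zfp445, a zinc finger gene of imprint protection named after its values were seen, lay on the other side (log2 0.36, SE 0.15, limma adjusted p = 0.137). Uhrf1, which brings the maintenance methyltransferase to replicated DNA, fell 6.31-fold (log2 -2.66, SE 0.22, limma adjusted p = 6.36e-07), and Dnmt1, that methyltransferase, fell by log2 0.73 (SE 0.09, adjusted p = 2.78e-05). Trim28, a corepressor at imprinted control regions, fell by 0.59 (SE 0.13, adjusted p = 0.00452), and Smchd1, a chromatin silencer, fell by 0.67 (SE 0.13, adjusted p = 0.00171).

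With EV against non-cultured cells these 4 and Ctcf, the insulator protein of the H19 and Igf2 domain, were lower, Ctcf by log2 -0.52 (SE 0.12, limma adjusted p = 0.00898). With EV against without EV none of the 8 was called, and Uhrf1 differed by 0.38 (SE 0.22, adjusted p = 0.773).

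**Figure D5:**
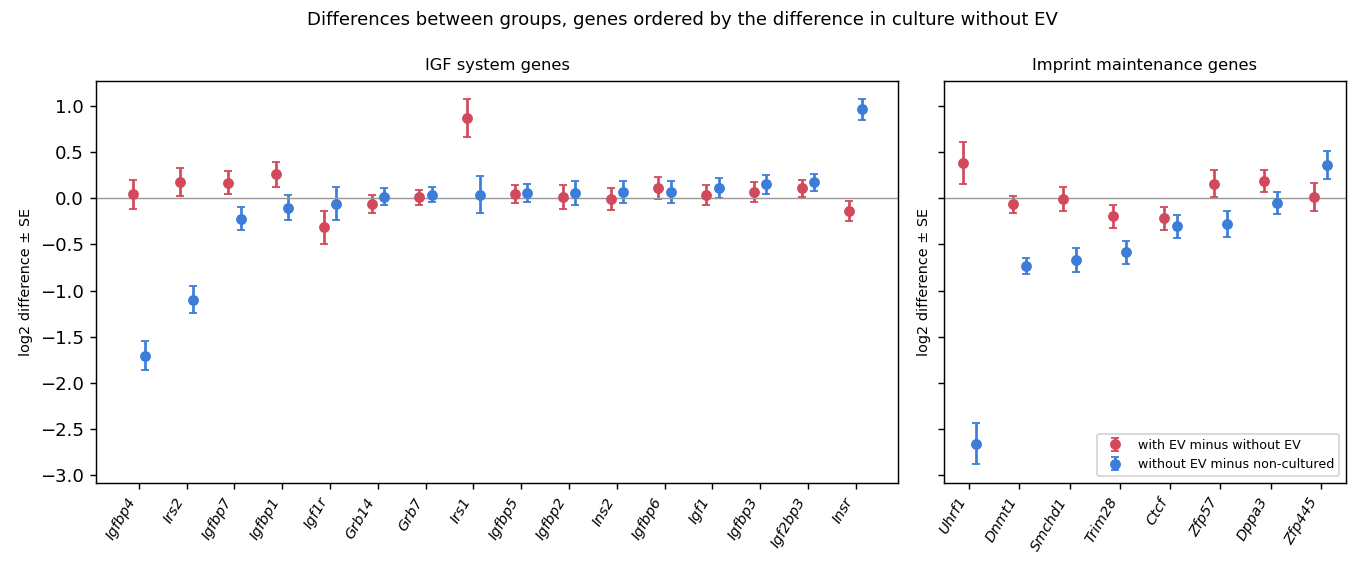
Log2 difference ± SE of 16 IGF system genes (left) and 8 imprint maintenance genes (right), each ordered by the difference in culture without EV. Red points give with EV minus without EV and blue points without EV minus non-cultured. The lowest blue points are Uhrf1 at -2.66 and Igfbp4 at -1.71, and Irs1 has the highest red point at 0.87.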

How the data were processed

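Total RNA of each sample, 500 pg, was labelled with biotin and hybridised to Affymetrix Mouse Gene 2.0 arrays, per the labels. The deposited values were taken as log2 by their range, 1.40 to 13.0, and the base is not given in the sources used here. Per the submitters' processing notes MAS5 was used, in a role they do not state. How the authors corrected background and normalized is not given in the sources used here, so dim genes cannot be told from background. No pair of arrays was identical.

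Of 41345 probe sets, 23521 had 1 gene symbol in the platform annotation, 1814 several and 16010 none. In limma 3.58.1 (R 4.3.3), lmFit and eBayes estimated a mean per group from the 15 arrays together, with two-sided tests. It was tested on simulated data. Entrez IDs of 21994 genes matched RefSeq (GRCm38.p6), which gave gene order. Promoter windows were RefSeq's.

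The members and gene lists were chosen with earlier results of these data known. The text names all measured members, genes of their domains, up to 4 genes of each other list per comparison by smallest p, and the 5 closest to Peg10. Predicted genes are not named. The labels give no batch. P-values weigh a difference between group means against the spread between arrays within groups, pooled over the 3 groups and moderated by eBayes. Alternatives were quantile normalization, median centring, no dim genes, mean or all probe sets, 2 groups only, trend and robust prior, array weights, a replicate block, and leaving out each array.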

Additional observations from a re-analysis of the deposited data

Results flagged for a closer look

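In each group of 5, Dixon's test at the 95% level was used to find an array distant from the rest, which chance alone gives in about 1 of 20 groups. Of 27 groups of the 9 measured genes 3 passed. Cdkn1c read 5.61 in replicate 1 with EV, Dlk1 read 4.79 in replicate 4 without EV, and Igf2 read 4.46 in non-cultured replicate 4.

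Of 300 groups of other genes in the lists and the Peg10 comparison 24 passed, and those of the genes named or drawn here follow. Among neighbouring genes, replicate 5 with EV was high for Casd1 (8.32) and low for Rian (2.78), and it was also high for Asb4 (4.25) and low for Kcnq1 (4.26). Replicate 1 with EV was high for Dio3 (4.25) and Tfpi2 (4.08), and low for Ube3a (8.12) and the LSK marker Kit (9.52). Ppp1r9a was high in replicate 3 with EV (6.64), Zim1 in replicate 2 with EV (3.52) and Osbpl5 in replicate 4 with EV (5.47). In non-cultured cells Th and Mkrn3 were low in replicate 3 (4.27 and 4.01), Mas1 high in replicate 2 (3.55), Gatm high in replicate 5 (6.39) and Cxcl12 low in replicate 4 (4.31). Irs1 was high in replicate 3 with EV (5.85), Irs2 low in replicate 2 without EV (5.72) and Ctcf low in replicate 1 without EV (7.88).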

How the results depend on the processing

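Igf2r kept its call and direction in culture without EV in all 24 alternatives, from log2 -0.83 to -0.61. As a description, the Peg10 difference with EV against without EV ranged from 1.73 to 1.99. Leaving out 1 array at a time, the count of members called in culture without EV was 1 to 2. The second call was Ndn, without replicate 3 of the group without EV. Counts over all genes ranged from 29 to 53 with EV against without EV, from 2526 to 3332 in culture without EV and from 2604 to 3177 with EV against non-cultured cells, the 29 arising without replicate 2 of the group without EV. With the replicate number as a block the counts in the same order were 39, 2987 and 3063, and the calls of members did not change. Same-numbered arrays shared little (correlations of -0.12 to 0.19 over 15 pairs, 1 above 0.1), so the numbers were not taken to pair them. Over 66 named genes, 4701 alternative values held 49 calls lost, most of them for Asb4 and Kit, 24 gained and none reversed, and 106 uncalled values changed sign.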
